A study of Oryza sativa with 12 samples.

Results

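Roots of an OsPEP1 RNAi line of rice (Oryza sativa, cultivar XS134) were profiled by RNA sequencing with and without added PEP1. The libraries described were chosen by their labels alone and are 6 of the 12 in the series: 3 from OsPEP1 RNAi line 1 treated with 1 µM PEP1 and 3 from the same line treated with ethanol. The remaining 6 libraries come from wild type roots of the same cultivar, 3 with ethanol and 3 with 1 µM PEP1. They were used to share 1 estimate of the spread and to test whether a change differed between the genotypes. All seedlings were 7 days old and all tissue was root. The RNAi plants belong to a single transgenic line, so effects of the silencing and of that line cannot be told apart. The labels do not say what PEP1 is, and the length of the treatment is not given in the sources used here. No source used here pairs OsPEP1 with a locus, so the level of the silenced gene was not analysed here.

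Rice roots take up iron in more than one form. Iron deficiency switches on bHLH transcription factors, the synthesis of phytosiderophores from S-adenosylmethionine through nicotianamine, and transporters for ferrous iron and for iron bound to phytosiderophores. Jasmonate is made from fatty acids in plastids and peroxisomes, and its active conjugate removes JAZ repressors, whose own genes are induced by the hormone. Rice also makes diterpenoid phytoalexins, antimicrobial compounds whose synthesis genes lie in clusters on chromosomes 2 and 4.

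Values are CPM, read counts scaled to the depth of each library with edgeR's TMM factors, and each list of values follows replicates 1, 2 and 3. CPM is not corrected for gene length, so it compares libraries and not genes. The 6 libraries held 16132215 to 21317008 counts, and every PEP1 library was deeper than every ethanol library. A count of 0 allows up to 3 counts, or 0.141 to 0.186 CPM in these libraries. These floors cover counting error only. Among the 6 libraries the first principal component (68.7% of the variance) placed ethanol at -109.4, -43.9 and -83.8 and PEP1 at 81.3, 126.0 and 29.8, without overlap. The labels do not say that the replicates were separate cultures, so every p-value measures the spread between samples, which may be technical.

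The root label was checked against marker genes. LSI1 (LOC_Os02g51110), a silicon influx transporter of rice roots, was found at 684 to 1578 CPM in the 6 libraries, and LSI2 (LOC_Os03g01700), the partner efflux transporter, at 385 to 1307 CPM. The shoot markers CAB1R (LOC_Os09g17740) and CAB2R (LOC_Os01g41710), which encode chlorophyll-binding proteins of leaves, were above 0 in all 6. Summed, they reached 9.86 to 58.5 CPM under ethanol and 47.4 to 616 CPM under PEP1, and replicate 2 was the highest library of each group. Neither passed edgeR's test (adjusted p = 0.0773 for CAB1R and 0.104 for CAB2R), although both had an unadjusted p below 0.05 and DESeq2 called both. Their log2 changes in the wild type were 0.49 and -0.42. In bulk tissue, fewer cells of a type and less RNA per cell cannot be told apart, which holds for every change given here.

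PEP1 moved many genes of the RNAi roots in both directions. The test was the quasi-likelihood test of edgeR, adjusted by the Benjamini-Hochberg method over every gene tested, and adjusted p below refers to it unless another tool is named. Of 25602 genes 3934 passed at an adjusted p below 0.05 (15.4%). Of these, 2223 rose (8.68%) and 1711 fell (6.68%). The change was at least 4-fold in 841 of the genes that rose and in 268 of those that fell. The count changed when a library was left out, which also leaves fewer libraries to test with. With 1 ethanol library left out it was 1812 (replicate 1), 2311 (replicate 2) or 1293 (replicate 3). With 1 PEP1 library left out it was 1475 (replicate 1), 1703 (replicate 2) or 4064 (replicate 3). It was 1089 without replicate 2 of both groups, and 1048 of these genes were among the 3934. In these fits the group with 2 libraries is assumed to vary like the others.

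Gene names could be given to 246 loci, grouped into lists by role, and 232 of them passed the filter on low counts. Of the 232, 49 rose and 38 fell (37.5%, against 15.4% of all genes), with a median log2 change of 0.15 against -0.01 over all genes. In 141 of them (60.8%) the 3 ethanol and 3 PEP1 libraries did not overlap, against 41.5% of all genes. PEP1 was the higher side in 83 of the 232, against 21.7% of all genes, and the lower in 58 of the 232, against 19.8% of all genes. The lists were chosen with earlier results of these data known, so these shares describe the lists only. Leaving out any 1 of the 6 libraries kept the call of 44 of the 87 called genes. For all 87 the direction was the same wherever they were tested among the 15 alternatives tried for the RNAi contrast. KSL5 was tested in 12 of these. The plot of changes by list shows where they lie.

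**Figure D1:**
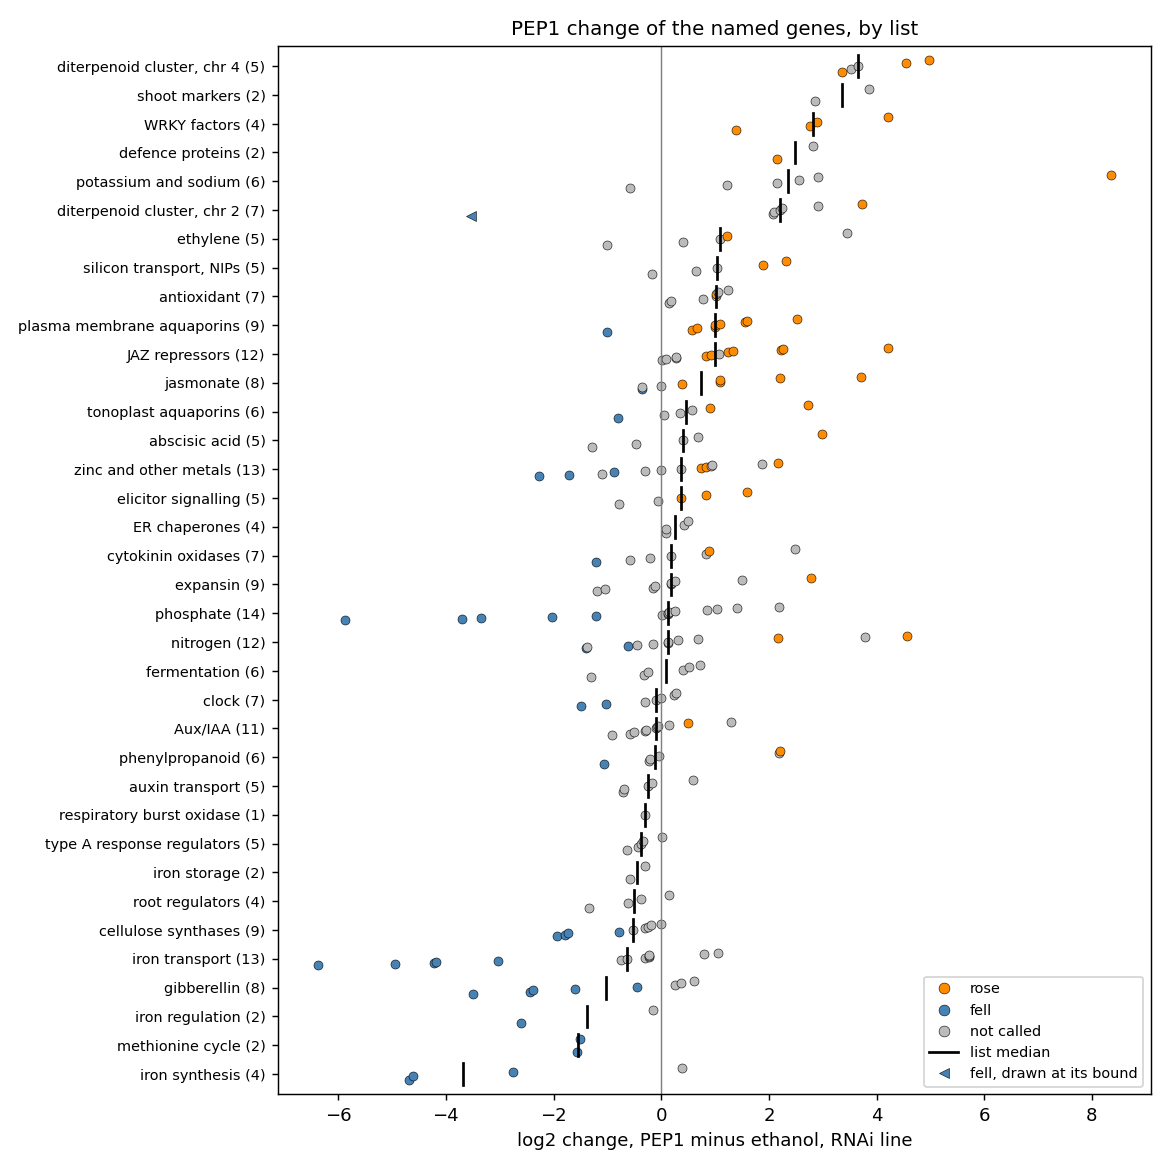
Each point is 1 named gene, placed by its log2 change under PEP1 in the RNAi line (horizontal axis) and by its list (vertical axis, with the number of genes tested). Black bars mark list medians; iron synthesis lies lowest (-3.68) and the chromosome 4 diterpenoid cluster highest (3.65). The triangle is KSL5, drawn at the bound set by its 0 counts under PEP1.

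Iron uptake genes fell. Of the 4 nicotianamine and phytosiderophore synthesis genes 3 fell and of the 13 iron transporters 5 fell, and none rose in either list. Of the 2 regulators tested 1 fell, and neither of the 2 vacuolar iron transporters passed. Other iron genes did not pass the check of names and were not examined. Among them were the regulator IRO2, the ferritins FER1 and FER2, and every efflux gene of the lists, such as TOM1. IRO3 (LOC_Os03g26210), a bHLH factor that restrains the iron deficiency response in rice, stood at 214, 211 and 200.3 CPM under ethanol and 31.9, 27.6 and 42.8 CPM under PEP1. The 3 PEP1 libraries lay close together and far below the ethanol libraries. The fall was 2.61 ± 0.26 (SE, adjusted p = 0.00028) on the log2 scale. IDEF1 (LOC_Os08g01090), a transcription factor upstream of that response, had overlapping groups and a log2 change of -0.16 ± 0.14 (SE, adjusted p = 0.446).

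The nicotianamine synthases led the synthesis list. NAS2 (LOC_Os03g19420) stood at 2571, 1884 and 3031 CPM under ethanol and 73.97, 72.1 and 146 CPM under PEP1. NAS1 (LOC_Os03g19427), its neighbour and near copy, stood at 1770, 1661 and 2206 CPM under ethanol and 58.2, 61.8 and 110.3 CPM under PEP1. In both genes PEP1 replicate 3 was the highest of its group, and every PEP1 library lay far below every ethanol library. NAS2 fell by 4.68 ± 0.58 (SE, adjusted p = 0.000988) and NAS1 by 4.61 ± 0.55 (SE, adjusted p = 0.00081) on the log2 scale, and reads may have been divided between these copies. NAAT1 (LOC_Os02g20360), the aminotransferase that converts nicotianamine towards phytosiderophores, stood at 615, 949 and 944 CPM under ethanol and 115, 138 and 119.9 CPM under PEP1. It fell by 2.75 ± 0.46 (SE, adjusted p = 0.00468), with ethanol replicate 1 the lowest of the ethanol libraries. NAS3 (LOC_Os07g48980) was not called, at 30.3, 24.5 and 27.97 CPM under ethanol and 36.3, 41.9 and 29.6 CPM under PEP1, with a log2 change of 0.38 ± 0.16 (SE, adjusted p = 0.13).

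The 2 genes tested of methionine recycling and of S-adenosylmethionine, the substrate of nicotianamine synthase, fell too. Others of the list, such as MTN, SAMS1 and SAMS3, did not pass the check of names and were not examined. SAMS2 (LOC_Os01g22010), an S-adenosylmethionine synthetase, stood at 2928, 2608 and 3039 CPM under ethanol and 989, 1005 and 1009 CPM under PEP1. Its PEP1 libraries lay close together, below every ethanol library, and the fall was 1.51 ± 0.15 (SE, adjusted p = 0.000341) on the log2 scale. MTK1 (LOC_Os04g57400), the methylthioribose kinase of the Yang cycle, which returns the by-product of nicotianamine synthesis to methionine, stood at 292, 272 and 364 CPM under ethanol and 102, 109 and 103 CPM under PEP1. It fell by 1.56 ± 0.25 (SE, adjusted p = 0.00377). Both genes tested kept their calls in the 15 alternatives.

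The iron transporters that fell included carriers of free and of bound iron. IRT2 (LOC_Os03g46454), a ferrous iron transporter, stood at 60.8, 116 and 111 CPM under ethanol and 1.17, 0.856 and 1.398 CPM under PEP1, so little was left in any PEP1 library. It fell by 6.38 ± 0.53 (SE, adjusted p = 9.97e-05) on the log2 scale. NRAMP1 (LOC_Os07g15460), a metal transporter of the plasma membrane, stood at 1213, 1410 and 1393 CPM under ethanol and 41.3, 30.3 and 59.1 CPM under PEP1, with the ethanol libraries within a narrow range. It fell by 4.94 ± 0.34 (SE, adjusted p = 4.34e-05). YSL2 (LOC_Os02g43370), a transporter of iron and manganese bound to nicotianamine, stood at 1069, 1599 and 1335 CPM under ethanol and 70.03, 65.7 and 84.6 CPM under PEP1 and fell by 4.18 ± 0.38 (SE, adjusted p = 0.000149).

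YSL15 and IRT1 varied more between libraries. YSL15 (LOC_Os02g43410), which imports iron bound to phytosiderophores, stood at 235, 609 and 559 CPM under ethanol and 30.4, 20.8 and 23.7 CPM under PEP1. It fell by 4.23 ± 0.98 (SE, adjusted p = 0.0185), and the call was lost without ethanol replicate 3, PEP1 replicate 1 or PEP1 replicate 2 (adjusted p = 0.0558 to 0.0689). IRT1 (LOC_Os03g46470), the neighbour of IRT2, stood at 31.8, 149 and 133 CPM under ethanol and 15.9, 13.2 and 9.32 CPM under PEP1, so ethanol replicate 1 came near the PEP1 range without entering it. It fell by 3.03 ± 0.81 (SE, adjusted p = 0.0324), and the call was lost without ethanol replicate 2, ethanol replicate 3, PEP1 replicate 1, PEP1 replicate 2 or PEP1 replicate 3 (adjusted p = 0.0722 to 0.0936). The count of iron transporters that fell was 5 with all libraries and 3 without ethanol replicate 3, PEP1 replicate 1 or PEP1 replicate 2.

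The other 8 iron transporters were not called. NRAMP5 (LOC_Os07g15370), the manganese and cadmium importer of rice roots, stood at 195, 399 and 346 CPM under ethanol and 216, 225 and 119 CPM under PEP1, with overlapping groups. Its log2 change was -0.74 ± 0.45 (SE, adjusted p = 0.275). NRAMP3 (LOC_Os06g46310) stood lower in all 3 PEP1 libraries, with a log2 change of -0.63 ± 0.23 (SE, adjusted p = 0.0848). NRAMP2 (LOC_Os03g11010) had overlapping groups and a log2 change of -0.22 ± 0.21 (SE, adjusted p = 0.48). The 5 remaining YSL genes, YSL6 (LOC_Os04g32050), YSL9 (LOC_Os04g45860), YSL13 (LOC_Os04g44300), YSL16 (LOC_Os04g45900) and YSL18 (LOC_Os01g61390), had overlapping groups and log2 changes from -0.30 to 1.06. In edgeR neither vacuolar iron transporter passed, none had an unadjusted p below 0.05, and DESeq2 called 0. The genes VIT1 (LOC_Os04g38940) and VIT2 (LOC_Os09g23300) had log2 changes of -0.31 and -0.58 (adjusted p = 0.472 and 0.304).

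**Figure D2:**
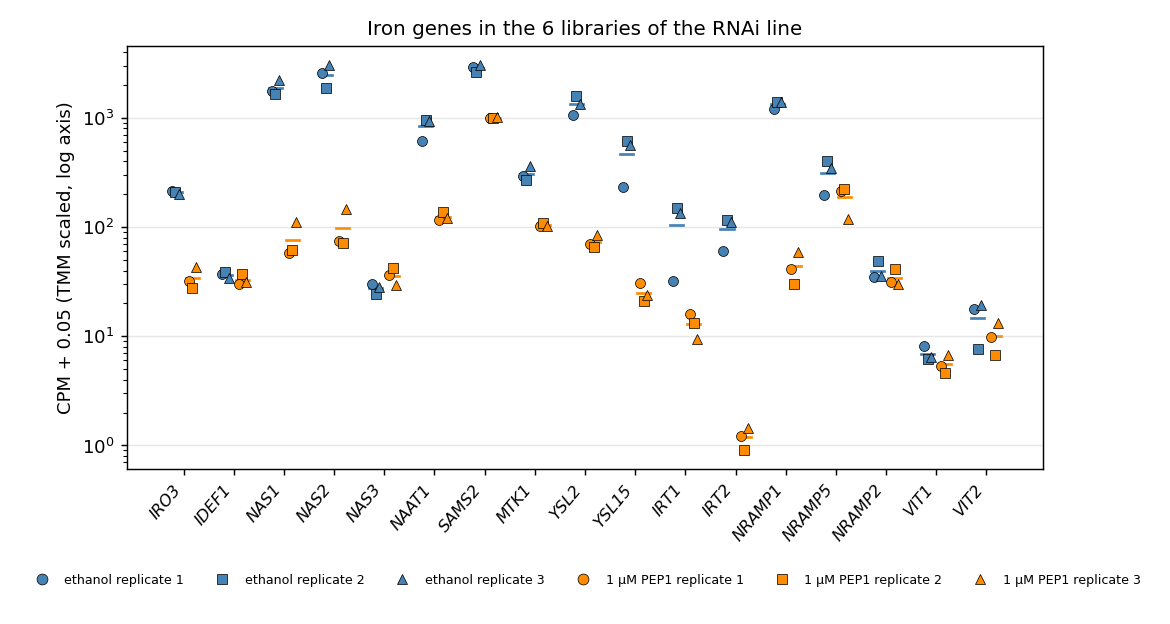
Iron genes in the 6 RNAi libraries, each marker 1 library (CPM + 0.05 on a log axis) and each bar a group mean; shapes mark the replicate. NRAMP1 falls from 1213 to 1410 CPM under ethanol to 30.3 to 59.1 CPM under PEP1, while NRAMP5 and NAS3 have overlapping groups.

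Zinc and copper transporters moved in both directions. Of 13 genes 3 rose and 3 fell, with a median log2 change of 0.37, and without replicate 2 of both groups 1 rose and 2 fell. ZIP9 (LOC_Os05g39540), a zinc importer, stood at 73.2, 126 and 116 CPM under ethanol and 21.9, 20.9 and 22.2 CPM under PEP1. ZIP5 (LOC_Os05g39560), its neighbour and a zinc importer too, stood at 92.1, 76.6 and 87.7 CPM under ethanol and 23.7, 22.5 and 32.3 CPM under PEP1. In both genes the PEP1 libraries were all lower. ZIP9 fell by 2.28 ± 0.23 (SE, adjusted p = 0.000341) and ZIP5 by 1.7 ± 0.20 (SE, adjusted p = 0.000713) on the log2 scale. HMA4 (LOC_Os02g10290), which stores copper in root vacuoles, stood at 273, 311 and 259 CPM under ethanol and 137, 151 and 170.4 CPM under PEP1 and fell by 0.88 ± 0.18 (SE, adjusted p = 0.0118). HMA5 (LOC_Os04g46940), which loads copper into the xylem, stood at 69.5, 73.2 and 68.7 CPM under ethanol and 121, 128 and 126 CPM under PEP1, with no overlap, and rose by 0.83 ± 0.12 (SE, adjusted p = 0.00251). The call of HMA4 was lost without PEP1 replicate 1 (adjusted p = 0.0554). MTP1 (LOC_Os05g03780) rose by 0.74 ± 0.18 (SE, adjusted p = 0.0234), a call lost without ethanol replicate 1, ethanol replicate 3, PEP1 replicate 1 or PEP1 replicate 2 (adjusted p = 0.0696 to 0.0791). ZIP8 (LOC_Os07g12890) rose by 2.17 ± 0.46 (SE, adjusted p = 0.0137), with PEP1 replicate 2 at 24.8 CPM against 7.05 and 8.43 CPM in the other two, and the call was lost without ethanol replicate 3 (adjusted p = 0.0637). HMA9 (LOC_Os06g45500) and ZIP1 (LOC_Os01g74110) had log2 changes of 0.37 ± 0.19 (SE, adjusted p = 0.193) and 1.87 ± 0.91 (SE, adjusted p = 0.179).

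Of the named genes that rose, HKT2;1 had the largest change. HKT2;1 (LOC_Os06g48810), which imports sodium into potassium-starved rice roots, stood at 0.461, 1.23 and 0.3696 CPM under ethanol and 254, 295 and 133 CPM under PEP1. The ethanol libraries were near the floor and all 3 PEP1 libraries far above them. The rise was 8.35 ± 0.70 (SE, adjusted p = 0.000101) on the log2 scale, and it passed in all 15 alternatives. Of the 6 potassium and sodium genes it was the only one called, with a list median of 2.35, while DESeq2 called 5 of the 6 and edgeR 2 without ethanol replicate 3. HAK1 (LOC_Os04g32920), a high-affinity potassium transporter, stood at 51.8, 190.2 and 111 CPM under ethanol and 1164, 1128 and 355 CPM under PEP1, and AKT1 (LOC_Os01g45990), the inward potassium channel of roots, at 34.4, 154 and 102 CPM under ethanol and 587, 491 and 209 CPM under PEP1. The groups overlapped in neither, but their log2 changes of 2.91 ± 1.04 (SE, adjusted p = 0.0813) and 2.14 ± 0.86 (SE, adjusted p = 0.11) did not pass.

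Water channel genes rose, most of them in the plasma membrane family. Of 9 PIP aquaporins tested 8 rose and 1 fell, with a median log2 change of 1.00, and the groups overlapped in none. PIP2-5 (LOC_Os07g26660) stood at 116, 108 and 97.4 CPM under ethanol and 685, 487 and 674 CPM under PEP1. It rose by 2.52 ± 0.22 (SE, adjusted p = 0.000112). PIP2-3 (LOC_Os04g44060) stood at 667, 957 and 848 CPM under ethanol and 2970, 1980 and 2298 CPM under PEP1 and rose by 1.55 ± 0.20 (SE, adjusted p = 0.00129). PIP2-2 (LOC_Os02g41860) rose by 1.09 ± 0.15 (SE, adjusted p = 0.0021) and PIP1-1 (LOC_Os02g44630) by 1.00 ± 0.18 (SE, adjusted p = 0.00678). PIP2-6 (LOC_Os04g16450) went the other way, at 260.2, 348 and 334 CPM under ethanol and 150.2, 139 and 177 CPM under PEP1, a fall of 1.01 ± 0.16 (SE, adjusted p = 0.00356). The remaining 4, PIP1-2 (LOC_Os04g47220), PIP1-3 (LOC_Os02g57720), PIP2-1 (LOC_Os07g26690) and PIP2-4 (LOC_Os07g26630), rose by 0.57 to 1.59 on the log2 scale (adjusted p = 0.0109 to 0.034).

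The number of PIP genes that rose was 5 without ethanol replicate 1, ethanol replicate 3, PEP1 replicate 1 or PEP1 replicate 2, and 4 without replicate 2 of both groups. PIP1-2, PIP1-3 and PIP2-1 were the ones that lost their calls in the 4 single-library fits. PIP2-1 lost its call when any 1 of the 6 libraries was left out (adjusted p = 0.0557 to 0.115), PIP1-3 without ethanol replicate 1, ethanol replicate 3, PEP1 replicate 1 or PEP1 replicate 2 (adjusted p = 0.0517 to 0.11) and PIP1-2 without ethanol replicate 1, ethanol replicate 3, PEP1 replicate 1 or PEP1 replicate 2 (adjusted p = 0.054 to 0.068).

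Of 6 tonoplast aquaporins 2 rose and 1 fell, with a median of 0.47. TIP1-2 (LOC_Os01g74450) stood at 181, 275 and 223 CPM under ethanol and 1695, 1361 and 1449 CPM under PEP1, a rise of 2.73 ± 0.19 (SE, adjusted p = 4.34e-05). TIP2-1 (LOC_Os02g44080) rose by 0.9 ± 0.24 (SE, adjusted p = 0.0302), a call lost without ethanol replicate 1, ethanol replicate 2, PEP1 replicate 1 or PEP1 replicate 3 (adjusted p = 0.0593 to 0.108). TIP3-1 (LOC_Os10g35520) stood at 21.7, 17.7 and 17.4 CPM under ethanol and 10.02, 11.6 and 10.9 CPM under PEP1 and fell by 0.8 ± 0.14 (SE, adjusted p = 0.00644). TIP1-1 (LOC_Os03g05290) and TIP2-2 (LOC_Os06g22960) had log2 changes of 0.58 ± 0.21 (SE, adjusted p = 0.0881) and 0.36 ± 0.21 (SE, adjusted p = 0.253). Among 5 silicon transport and NIP genes 2 rose. NIP3-1 (LOC_Os10g36924), a boric acid channel in rice, stood at 47.5, 51.9 and 53.1 CPM under ethanol and 219.5, 181 and 167 CPM under PEP1 and rose by 1.9 ± 0.42 (SE, adjusted p = 0.0154), a call lost without ethanol replicate 1, ethanol replicate 3 or PEP1 replicate 1 (adjusted p = 0.0539 to 0.0577). NIP1-1 (LOC_Os02g13870) rose by 2.32 ± 0.35 (SE, adjusted p = 0.0029). The silicon transporters LSI1 and LSI2 had log2 changes of 0.65 ± 0.32 (SE, adjusted p = 0.181) and 1.04 ± 0.39 (SE, adjusted p = 0.0942).

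Genes of the jasmonate list and JAZ repressors rose in part. Of 8 jasmonate genes 5 rose and 1 fell, with a median log2 change of 0.75. Of 12 JAZ genes 7 rose and none fell, with a median of 1.00. Without replicate 2 of both groups the counts that rose were 3 and 4, with medians of 0.64 and 1.15. The shoot markers had higher summed levels in the PEP1 group, as given above, and their part in this result was not tested.

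In the jasmonate list, OPR1 (LOC_Os06g11290), an oxophytodienoate reductase, stood at 4.304, 2.63 and 3.76 CPM under ethanol and 18.7, 13.6 and 17.1 CPM under PEP1. It was listed by its enzyme family, and a part in jasmonate synthesis was not tested. It rose by 2.2 ± 0.26 (SE, adjusted p = 0.000722) on the log2 scale, and no ethanol library reached the PEP1 range. AOS1 (LOC_Os03g55800), an allene oxide synthase at the first committed step, stood at 21.1, 31.4 and 29.9 CPM under ethanol and 54.03, 66.2 and 55.9 CPM under PEP1 and rose by 1.1 ± 0.17 (SE, adjusted p = 0.00368). AOS2 (LOC_Os03g12500), a second allene oxide synthase, stood at 0.871, 6.93 and 1.97 CPM under ethanol and 36.7, 77.3 and 14.5 CPM under PEP1, with replicate 2 the highest of both groups. It rose by 3.71 ± 0.86 (SE, adjusted p = 0.0184), and the call was lost without ethanol replicate 1, ethanol replicate 3 or PEP1 replicate 2 (adjusted p = 0.0583 to 0.0783). JAR1 (LOC_Os05g50890), which conjugates jasmonate to isoleucine, stood at 30.1, 34.5 and 32.8 CPM under ethanol and 76.5, 86.4 and 45.8 CPM under PEP1 and rose by 1.1 ± 0.26 (SE, adjusted p = 0.022); the call was lost without ethanol replicate 1, ethanol replicate 2, ethanol replicate 3, PEP1 replicate 1 or PEP1 replicate 2 (adjusted p = 0.0505 to 0.0746).

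Changes of the other genes in the list were small. OPR7 (LOC_Os08g35740), the peroxisomal reductase, rose by 0.39 ± 0.11 (SE, adjusted p = 0.037), a call lost without ethanol replicate 1, ethanol replicate 2, ethanol replicate 3, PEP1 replicate 1 or PEP1 replicate 2 (adjusted p = 0.0761 to 0.117). AOC (LOC_Os03g32314), the allene oxide cyclase, fell by 0.35 ± 0.11 (SE, adjusted p = 0.0498), a call lost when any 1 of the 6 libraries was left out (adjusted p = 0.0581 to 0.162). The receptor genes COI1A (LOC_Os01g63420) and COI1B (LOC_Os05g37690) had log2 changes of -0.35 ± 0.15 (SE, adjusted p = 0.133) and -0.01 ± 0.20 (SE, adjusted p = 0.977). The number of jasmonate genes that rose was 2 without ethanol replicate 1, ethanol replicate 3 or PEP1 replicate 2, and 3 without ethanol replicate 2 or PEP1 replicate 1.

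The JAZ genes that rose were TIFY9, TIFY10A, TIFY10B and 4 TIFY11 genes, while TIFY10C and TIFY11E did not pass. TIFY9 (LOC_Os04g32480) stood at 0.154, 0.224 and 0.0616 CPM under ethanol and 2.09, 4.28 and 2.28 CPM under PEP1, so its ethanol libraries were at or near the floor. It rose by 4.22 ± 0.62 (SE, adjusted p = 0.00249). TIFY11D (LOC_Os10g25290) stood at 3.07, 7.49 and 7.95 CPM under ethanol and 26.02, 38.9 and 23.4 CPM under PEP1 and rose by 2.26 ± 0.35 (SE, adjusted p = 0.00348). TIFY10B (LOC_Os07g42370) stood at 199, 217 and 219 CPM under ethanol and 385, 436 and 314 CPM under PEP1, with no overlap, and rose by 0.84 ± 0.14 (SE, adjusted p = 0.00459). TIFY10A (LOC_Os03g28940) rose by 0.93 ± 0.16 (SE, adjusted p = 0.00622). These 4 passed with any 1 of the 6 libraries left out.

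The other 3 called JAZ genes are neighbours on chromosome 3 whose reads may have been divided. TIFY11C (LOC_Os03g08320) rose by 2.22 ± 0.48 (SE, adjusted p = 0.0137), a call lost without ethanol replicate 1 or ethanol replicate 3 (adjusted p = 0.0547 to 0.0586). TIFY11B (LOC_Os03g08330) rose by 1.25 ± 0.30 (SE, adjusted p = 0.0204), a call lost without ethanol replicate 3, PEP1 replicate 1 or PEP1 replicate 2 (adjusted p = 0.053 to 0.0579). TIFY11A (LOC_Os03g08310) rose by 1.34 ± 0.38 (SE, adjusted p = 0.04), a call lost when any 1 of the 6 libraries was left out (adjusted p = 0.0564 to 0.13). Of the 5 not called, TIFY3 (LOC_Os04g55920) and TIFY6A (LOC_Os08g33160) had log2 changes of 0.08 ± 0.18 (SE, adjusted p = 0.78) and 0.28 ± 0.13 (SE, adjusted p = 0.157). The count of JAZ genes that rose was 4 without ethanol replicate 3.

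WRKY transcription factors of the defence response rose, 4 of the 4 that could be named, with a median log2 change of 2.82. Others, such as WRKY45 and WRKY53, did not pass the check of names and were not examined. WRKY24 (LOC_Os01g61080) stood at 4.099, 11.6 and 8.501 CPM under ethanol and 53.4, 83.2 and 41.8 CPM under PEP1 and rose by 2.88 ± 0.46 (SE, adjusted p = 0.00365). WRKY71 (LOC_Os02g08440) stood at 31.3, 59.9 and 51.1 CPM under ethanol and 113, 156 and 106 CPM under PEP1 and rose by 1.39 ± 0.22 (SE, adjusted p = 0.00392). WRKY76 (LOC_Os09g25060) stood at 1.59, 0.783 and 2.28 CPM under ethanol and 34.8, 32.01 and 19.5 CPM under PEP1, its neighbour WRKY62 (LOC_Os09g25070) at 5.23, 2.01 and 9.24 CPM under ethanol and 43.6, 32.8 and 34.6 CPM under PEP1, and neither overlapped. WRKY76 rose by 4.21 ± 0.74 (SE, adjusted p = 0.00602) and WRKY62 by 2.75 ± 0.66 (SE, adjusted p = 0.0216). WRKY76 and WRKY62 lost their calls without replicate 2 of both groups (adjusted p = 0.0534 and 0.103), and WRKY62 also without ethanol replicate 1, ethanol replicate 2 or PEP1 replicate 1 (adjusted p = 0.0579 to 0.0732).

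Few early signalling and defence protein genes could be examined, because others, such as PR1A and PR1B, did not pass the check of names. Tested were 5 elicitor genes and 2 genes of defence proteins. MPK3 (LOC_Os03g17700), a MAP kinase of elicitor signalling, stood at 28.4, 46.4 and 37.5 CPM under ethanol and 113, 144 and 83.5 CPM under PEP1 and rose by 1.6 ± 0.29 (SE, adjusted p = 0.00726). CEBIP (LOC_Os03g04110), the chitin-binding receptor, rose by 0.84 ± 0.22 (SE, adjusted p = 0.0318), a call lost without ethanol replicate 1, ethanol replicate 2, ethanol replicate 3, PEP1 replicate 1 or PEP1 replicate 2 (adjusted p = 0.0737 to 0.0985). MAPK6 (LOC_Os06g06090) rose by 0.36 ± 0.11 (SE, adjusted p = 0.0474), a call lost when any 1 of the 6 libraries was left out (adjusted p = 0.0658 to 0.154). CERK1 (LOC_Os08g42580), the receptor kinase that partners CEBIP, had overlapping groups and a log2 change of -0.07 ± 0.10 (SE, adjusted p = 0.66), and LYP4 (LOC_Os09g27890) had -0.79 ± 0.58 (SE, adjusted p = 0.368). So 3 of the 5 elicitor genes rose. Without PEP1 replicate 3 the count was 2, and without any other 1 library it was 1, MPK3. CHT1 (LOC_Os06g51060), a chitinase, stood at 10.2, 8.27 and 6.96 CPM under ethanol and 37.1, 48.1 and 28.8 CPM under PEP1 and rose by 2.16 ± 0.21 (SE, adjusted p = 0.000237).

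**Figure D3:**
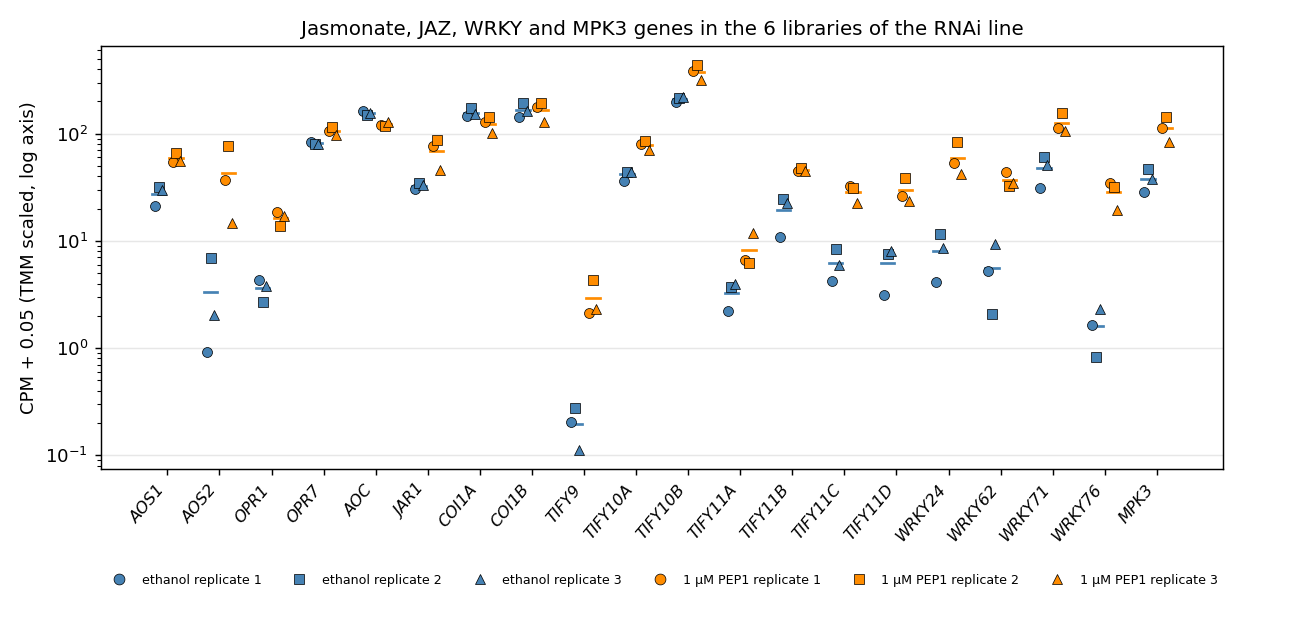
Jasmonate, JAZ, WRKY and MPK3 genes in the 6 RNAi libraries, each marker 1 library (CPM + 0.05 on a log axis), each bar a group mean and each shape a replicate. TIFY9 rises from 0.0616 to 0.224 CPM under ethanol to 2.09 to 4.28 CPM under PEP1, while COI1A and COI1B are not called.

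In the diterpenoid genes that rose, and in most of the others, replicate 2 was the highest PEP1 library. In the chromosome 4 cluster, which serves momilactone synthesis, 3 of 5 genes rose, with a median log2 change of 3.65. CYP99A3 (LOC_Os04g09920), a cytochrome P450 of the cluster, stood at 1.84, 53.4 and 3.57 CPM under ethanol and 168, 433 and 72.6 CPM under PEP1. CPS4 (LOC_Os04g09900), the diterpene cyclase that opens the pathway, stood at 1.02, 27.9 and 1.85 CPM under ethanol and 93.7, 250.3 and 44.6 CPM under PEP1. In both genes ethanol replicate 2 was more than 10 times the other ethanol libraries, yet below every PEP1 library. Their log2 changes of 3.52 ± 1.34 (SE, adjusted p = 0.0953) and 3.65 ± 1.19 (SE, adjusted p = 0.0598) did not pass.

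KSL4 (LOC_Os04g10060), the second cyclase of the pathway, stood at 0.0512, 0.335 and 0.246 CPM under ethanol and 2.14, 16.4 and 1.58 CPM under PEP1 and rose by 4.97 ± 0.98 (SE, adjusted p = 0.00992), and the call held with any 1 of the 6 libraries left out. CYP99A2 (LOC_Os04g10160) stood at 0.0512, 4.03 and 0.3696 CPM under ethanol and 12.4, 84.2 and 7.83 CPM under PEP1 and rose by 4.55 ± 1.28 (SE, adjusted p = 0.0378), a call lost without ethanol replicate 1, ethanol replicate 3, PEP1 replicate 1 or PEP1 replicate 2 (adjusted p = 0.0595 to 0.151). MAS (LOC_Os04g10010), the momilactone A synthase, stood at 1.59, 9.95 and 1.17 CPM under ethanol and 30.4, 85.6 and 15.5 CPM under PEP1 and rose by 3.37 ± 0.98 (SE, adjusted p = 0.0425), a call lost without ethanol replicate 1, ethanol replicate 3, PEP1 replicate 1 or PEP1 replicate 2 (adjusted p = 0.0799 to 0.142). The number that rose was 1 without ethanol replicate 1, ethanol replicate 3, PEP1 replicate 1 or PEP1 replicate 2, 5 without ethanol replicate 2, and 4 without replicate 2 of both groups.

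The chromosome 2 cluster, which makes phytocassanes and related compounds, also had replicate 2 as its highest PEP1 library in 6 of 7 genes, and KSL5 was at 0 in that group. CPS2 (LOC_Os02g36210), its first cyclase, stood at 0, 73.1 and 0.0616 CPM under ethanol and 1.46, 308 and 2.38 CPM under PEP1. KSL7 (LOC_Os02g36140), the next cyclase, stood at 0.359, 63.7 and 0.308 CPM under ethanol and 6.03, 287 and 4.75 CPM under PEP1. CYP71Z7 (LOC_Os02g36190), a P450 of the cluster, stood at 0.717, 30.2 and 0.863 CPM under ethanol and 7.78, 121 and 5.41 CPM under PEP1. In all 3 the ethanol replicate 2 library lay above PEP1 replicates 1 and 3, so the groups overlapped. The log2 changes of CPS2, KSL7 and CYP71Z7 were 2.09, 2.21 and 2.07 and did not pass (adjusted p = 0.334 to 0.511). Without replicate 2 of both groups, KSL7 had a log2 change of 3.98 and passed (adjusted p = 0.031), while CPS2 did not (5.78, adjusted p = 0.139).

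In the same cluster CYP76M6 (LOC_Os02g36280) stood at 0, 3.52 and 0 CPM under ethanol and 0.584, 25.6 and 0.652 CPM under PEP1, and CYP76M5 (LOC_Os02g36030) at 1.44, 7.04 and 1.48 CPM under ethanol and 1.85, 43.99 and 1.398 CPM under PEP1. Neither passed, with log2 changes of 2.92 ± 1.65 (SE, adjusted p = 0.24) and 2.24 ± 1.12 (SE, adjusted p = 0.189). CYP76M8 (LOC_Os02g36070) stood at 0.307, 4.14 and 0.678 CPM under ethanol and 7.44, 51.97 and 8.99 CPM under PEP1, without overlap, and rose by 3.73 ± 0.96 (SE, adjusted p = 0.0276), a call lost without ethanol replicate 1, ethanol replicate 3 or PEP1 replicate 2 (adjusted p = 0.078 to 0.108). KSL5 (LOC_Os02g36220), a cyclase gene near CPS2, held 30 counts over the ethanol group and 0 over the PEP1 group. With 3 counts as the limit over the PEP1 group, it was at least 11.6-fold lower (adjusted p = 0.0344), a call lost without ethanol replicate 1, ethanol replicate 3, PEP1 replicate 1, PEP1 replicate 2 or PEP1 replicate 3 (adjusted p = 0.0537 to 0.0845). So 1 of 7 genes rose and 1 fell, with a median of 2.21, which is the same with KSL5 at its bound.

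Of the 232 genes, PEP1 replicate 2 was the highest library of its group in 98 and the lowest in 90, and ethanol replicate 2 was the highest of its group in 123 and the lowest in 63. The following genes outside the clusters are given because 1 library was at least 5 times each of the other 2 of its group. PBZ1 (LOC_Os12g36880), a PR10 family defence protein, stood at 2.101, 89.2 and 4.19 CPM under ethanol and 145, 462 and 63.6 CPM under PEP1. Its log2 change was 2.81 ± 1.31 (SE, adjusted p = 0.16). CAB2R stood at 2.66, 14.4 and 0.3696 CPM under ethanol and 16.1, 228 and 9.04 CPM under PEP1, and CAB1R at 13.9, 44.1 and 9.49 CPM under ethanol and 63.2, 388 and 38.4 CPM under PEP1. CKX2 (LOC_Os01g10110), a cytokinin oxidase, stood at 0.307, 31.8 and 0.554 CPM under ethanol and 0.195, 58.1 and 0.0932 CPM under PEP1, with both replicate 2 libraries far above the rest. CATA (LOC_Os02g02400), a catalase, stood at 66.97, 125 and 60.00 CPM under ethanol and 66.5, 388 and 66.8 CPM under PEP1, and its log2 change was 1.05 ± 0.64 (SE, adjusted p = 0.273). The part of the replicate 2 libraries and of shoot transcripts in the diterpenoid changes was not tested beyond the values without them given above.

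**Figure D4:**
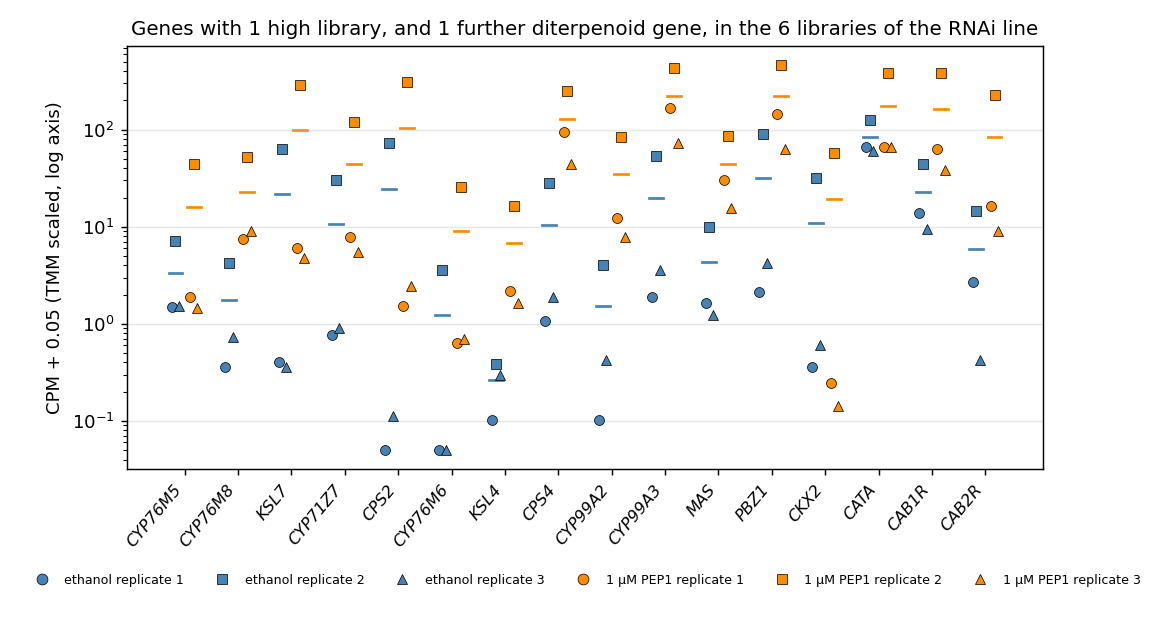
The 15 genes of the lists with 1 library at least 5 times each of the other 2 of its group and a group mean of at least 5 CPM, and MAS, in the 6 RNAi libraries (CPM + 0.05 on a log axis, each marker 1 library, bars group means, shapes replicates). The replicate 2 library is the highest of the PEP1 group in all 16 genes, and CAB2R reaches 228 CPM there.

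Gibberellin genes fell. Of 8 tested 5 fell and none rose, with a median log2 change of -1.02, and 3 fell without replicate 2 of both groups (median -0.76). The early steps were affected: CPS1 (LOC_Os02g17780), the cyclase that opens gibberellin synthesis, stood at 4.76, 17.4 and 9.18 CPM under ethanol and 0.973, 0.375 and 1.398 CPM under PEP1. It fell by 3.49 ± 0.59 (SE, adjusted p = 0.00505) on the log2 scale. KO2 (LOC_Os06g37364), an ent-kaurene oxidase, stood at 54.4, 108 and 91.1 CPM under ethanol and 14.5, 11.7 and 20.4 CPM under PEP1 and fell by 2.44 ± 0.35 (SE, adjusted p = 0.00227). GA20OX2 (LOC_Os01g66100), a late biosynthetic oxidase known in rice as the semi-dwarf gene, stood at 6.25, 5.31 and 6.47 CPM under ethanol and 0.778, 1.12 and 1.54 CPM under PEP1 and fell by 2.38 ± 0.38 (SE, adjusted p = 0.00362). These 3 passed with any 1 of the 6 libraries left out.

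KS1A (LOC_Os04g52230), the second cyclase of gibberellin synthesis, stood at 6.87, 9.45 and 5.11 CPM under ethanol and 2.38, 1.87 and 2.796 CPM under PEP1 and fell by 1.6 ± 0.36 (SE, adjusted p = 0.0171), a call lost without ethanol replicate 2, PEP1 replicate 1 or PEP1 replicate 2 (adjusted p = 0.0582 to 0.0671). GID1 (LOC_Os05g33730), the gibberellin receptor, fell by 0.44 ± 0.13 (SE, adjusted p = 0.0486), a call lost when any 1 of the 6 libraries was left out (adjusted p = 0.0547 to 0.141). SLR1 (LOC_Os03g49990), the DELLA repressor, and GID2 (LOC_Os02g36974), the F-box protein that removes it, had log2 changes of 0.37 ± 0.16 (SE, adjusted p = 0.137) and 0.25 ± 0.14 (SE, adjusted p = 0.23). The count that fell was 3 without ethanol replicate 2, PEP1 replicate 1 or PEP1 replicate 2.

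Phosphate genes fell in part: 3 SPX genes and 2 transporters. Of 14 genes 5 fell and none rose, with a median of 0.13. SPX5 (LOC_Os03g29250) stood at 21.3, 36.5 and 21.3 CPM under ethanol and 2.58, 2.57 and 2.61 CPM under PEP1, with PEP1 libraries nearly equal, and SPX1 (LOC_Os06g40120) at 52.98, 68.4 and 54.95 CPM under ethanol and 15.4, 11.4 and 16.3 CPM under PEP1. Both encode SPX proteins, sensors that hold back phosphate starvation factors. SPX5 fell by 3.35 ± 0.28 (SE, adjusted p = 0.000101) and SPX1 by 2.03 ± 0.20 (SE, adjusted p = 0.00028). SPX2 (LOC_Os02g10780) fell by 1.22 ± 0.37 (SE, adjusted p = 0.0471), a call lost when any 1 of the 6 libraries was left out (adjusted p = 0.0681 to 0.11). PT6 (LOC_Os08g45000), a phosphate transporter, stood at 19.5, 9.84 and 5.42 CPM under ethanol and 1.65, 0.161 and 0.839 CPM under PEP1 and fell by 3.69 ± 0.66 (SE, adjusted p = 0.00648).

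PT10 (LOC_Os06g21950) held 172 counts over the ethanol libraries and 3 over the PEP1 libraries, a ratio of 66.4 (95% counting interval 22.3 to 325). It passed (adjusted p = 0.0396), a call lost without ethanol replicate 2, ethanol replicate 3, PEP1 replicate 1, PEP1 replicate 2 or PEP1 replicate 3 (adjusted p = 0.0814 to 0.121). PT1 (LOC_Os03g05620) and PHO1;2 (LOC_Os02g56510), which carry phosphate into roots and to the xylem, had log2 changes of 1.04 ± 0.35 (SE, adjusted p = 0.0664) and 0.01 ± 0.17 (SE, adjusted p = 0.979). The starvation regulators PHR1 (LOC_Os03g21240) and PHR2 (LOC_Os07g25710) had 0.26 and 0.15 (adjusted p = 0.132 and 0.367). The count that fell was 3 without ethanol replicate 2, ethanol replicate 3 or any PEP1 library.

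Nitrogen genes differed strongly between libraries of a group. Of 12 genes 2 rose and 2 fell, with a median of 0.13. GLN1;2 (LOC_Os03g12290), a cytosolic glutamine synthetase, stood at 18.4, 109 and 66.04 CPM under ethanol and 2144, 1681 and 751 CPM under PEP1. AMT1;2 (LOC_Os02g40730), an ammonium transporter, stood at 8.15, 53.2 and 33.6 CPM under ethanol and 625, 516 and 172 CPM under PEP1, and AMT1;1 (LOC_Os04g43070) at 55.3, 102 and 68.8 CPM under ethanol and 414, 417 and 188 CPM under PEP1. In these 3 genes ethanol replicate 1 and PEP1 replicate 3 were the lowest of their groups, and the groups did not overlap. GLN1;2 rose by 4.56 ± 1.32 (SE, adjusted p = 0.0419) and AMT1;1 by 2.17 ± 0.62 (SE, adjusted p = 0.0408). AMT1;2 did not pass, with a log2 change of 3.79 ± 1.17 (SE, adjusted p = 0.0512). All 4 calls of this list were lost without replicate 2 of both groups.

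Over the 12 nitrogen genes ethanol replicate 1 was the lowest ethanol library in 11, and PEP1 replicate 3 the lowest PEP1 library in 11. Among the 232 named genes those counts were 126 and 107. NIA1 (LOC_Os08g36480), a nitrate reductase, fell by 1.4 ± 0.41 (SE, adjusted p = 0.0447), and GLN1;1 (LOC_Os02g50240) by 0.62 ± 0.19 (SE, adjusted p = 0.0478). Fd-GOGAT (LOC_Os07g46460), the ferredoxin-dependent glutamate synthase, had a log2 change of 0.12 ± 0.29 (SE, adjusted p = 0.802). GLN1;2 lost its call without ethanol replicate 1, ethanol replicate 2, ethanol replicate 3, PEP1 replicate 1 or PEP1 replicate 2 (adjusted p = 0.0776 to 0.125). AMT1;1 lost its call without ethanol replicate 1, ethanol replicate 2, ethanol replicate 3, PEP1 replicate 1 or PEP1 replicate 2 (adjusted p = 0.0682 to 0.127). NIA1 lost its call without ethanol replicate 1, ethanol replicate 2, ethanol replicate 3, PEP1 replicate 1 or PEP1 replicate 3 (adjusted p = 0.0766 to 0.144). GLN1;1 lost its call without ethanol replicate 1, ethanol replicate 2, ethanol replicate 3, PEP1 replicate 1 or PEP1 replicate 2 (adjusted p = 0.0536 to 0.153).

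Cell wall genes moved in part. Of 9 cellulose synthases 4 fell and none rose, with a median of -0.53. CESA7 (LOC_Os10g32980), CESA4 (LOC_Os01g54620) and CESA9 (LOC_Os09g25490) form the secondary wall complex. CESA7 stood at 335, 137 and 268 CPM under ethanol and 52.3, 29.4 and 113 CPM under PEP1. CESA4 and CESA9 had the same order of libraries under ethanol, with replicate 1 highest and replicate 2 lowest, and under PEP1, with replicate 3 highest and replicate 2 lowest. CESA7 fell by 1.93 ± 0.44 (SE, adjusted p = 0.0179), CESA4 by 1.79 ± 0.44 (SE, adjusted p = 0.0227) and CESA9 by 1.73 ± 0.42 (SE, adjusted p = 0.0231). CESA3 (LOC_Os07g24190), of the primary wall, stood at 618, 536 and 602 CPM under ethanol and 367, 250.2 and 401 CPM under PEP1 and fell by 0.79 ± 0.18 (SE, adjusted p = 0.0163). CESA8 (LOC_Os07g10770) and CESA1 (LOC_Os05g08370) had log2 changes of -0.53 ± 0.19 (SE, adjusted p = 0.086) and -0.25 ± 0.22 (SE, adjusted p = 0.453).

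No cellulose synthase passed without ethanol replicate 1 or without ethanol replicate 3 (adjusted p of the 4 genes 0.0568 to 0.0889 where a call was lost), 1 did without PEP1 replicate 1 and 2 without PEP1 replicate 2. Of 6 phenylpropanoid genes tested 1 rose and 1 fell. The PAL genes and C4H did not pass the check of names and were not examined. 4CL5 (LOC_Os08g34790) stood at 12.1, 22.4 and 14.7 CPM under ethanol and 68.9, 109 and 47.6 CPM under PEP1 and rose by 2.2 ± 0.37 (SE, adjusted p = 0.0049). 4CL3 (LOC_Os02g08100) stood at 1302, 1362 and 1212 CPM under ethanol and 563, 812 and 491 CPM under PEP1 and fell by 1.05 ± 0.25 (SE, adjusted p = 0.0203), a call lost without ethanol replicate 1, ethanol replicate 2, ethanol replicate 3 or PEP1 replicate 1 (adjusted p = 0.0519 to 0.0802). Both encode 4-coumarate:CoA ligases. COMT1 (LOC_Os08g06100) and CAD2 (LOC_Os02g09490), of lignin synthesis, had log2 changes of -0.03 ± 0.20 (SE, adjusted p = 0.932) and -0.21 ± 0.18 (SE, adjusted p = 0.444). Of 9 expansins 1 rose, EXPA8 (LOC_Os01g14650), by 2.78 ± 0.69 (SE, adjusted p = 0.0244), a call lost without ethanol replicate 1, ethanol replicate 2, ethanol replicate 3 or PEP1 replicate 1 (adjusted p = 0.0676 to 0.0832). EXPB3 (LOC_Os10g40720) and EXPB2 (LOC_Os10g40710) had log2 changes of -1.04 ± 0.36 (SE, adjusted p = 0.0728) and 1.51 ± 0.91 (SE, adjusted p = 0.27).

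The remaining lists held few called genes. APX1 (LOC_Os03g17690), a cytosolic ascorbate peroxidase, stood at 377, 276 and 376 CPM under ethanol and 742, 634 and 712 CPM under PEP1 and rose by 1.02 ± 0.15 (SE, adjusted p = 0.00287), the 1 of 7 antioxidant genes called. APX2 (LOC_Os07g49400) and SODCC1 (LOC_Os03g22810) had log2 changes of 0.78 ± 0.34 (SE, adjusted p = 0.134) and 0.15 ± 0.11 (SE, adjusted p = 0.374). Of 7 clock genes 2 fell: PRR95 (LOC_Os09g36220) stood at 67.1, 126 and 101 CPM under ethanol and 33.3, 40.8 and 30.3 CPM under PEP1 and PRR1 (LOC_Os02g40510), the rice counterpart of TOC1, at 22.4, 29.2 and 28.4 CPM under ethanol and 14.01, 9.96 and 15.2 CPM under PEP1. PRR95 fell by 1.49 ± 0.26 (SE, adjusted p = 0.0057) and PRR1 by 1.03 ± 0.17 (SE, adjusted p = 0.00451). LHY (LOC_Os08g06110) and GI (LOC_Os01g08700) had log2 changes of 0.00 ± 0.17 (SE, adjusted p = 0.992) and 0.27 ± 0.20 (SE, adjusted p = 0.371). Of 7 cytokinin oxidases CKX3 (LOC_Os10g34230) rose by 0.9 ± 0.18 (SE, adjusted p = 0.0103) and CKX5 (LOC_Os01g56810) fell by 1.21 ± 0.32 (SE, adjusted p = 0.0308). The CKX3 call was lost without ethanol replicate 3 (adjusted p = 0.0557) and the CKX5 call without ethanol replicate 1, ethanol replicate 3, PEP1 replicate 2 or PEP1 replicate 3 (adjusted p = 0.05 to 0.102). CKX11 (LOC_Os08g35860) had a log2 change of -0.21 ± 0.17 (SE, adjusted p = 0.407).

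For other hormones, ACS1 (LOC_Os03g51740), an ethylene precursor synthase, rose by 1.22 ± 0.29 (SE, adjusted p = 0.0204), a call lost without ethanol replicate 1, ethanol replicate 3 or PEP1 replicate 1 (adjusted p = 0.072 to 0.0793). SALT (LOC_Os01g24710), a salt- and abscisic acid-induced lectin, rose by 2.99 ± 0.82 (SE, adjusted p = 0.0344), a call lost without ethanol replicate 1, ethanol replicate 2, ethanol replicate 3, PEP1 replicate 1 or PEP1 replicate 2 (adjusted p = 0.0734 to 0.112). IAA19 (LOC_Os05g48590), an auxin response repressor, rose by 0.5 ± 0.15 (SE, adjusted p = 0.0468), a call lost without ethanol replicate 1, ethanol replicate 2, ethanol replicate 3, PEP1 replicate 1 or PEP1 replicate 2 (adjusted p = 0.0794 to 0.137). These were the only genes edgeR called among 5 ethylene, 5 abscisic acid and 11 Aux/IAA genes. Of those not called, ABA8OX1 (LOC_Os02g47470) and ABA8OX2 (LOC_Os08g36860), which break down abscisic acid, had log2 changes of 0.69 ± 0.26 (SE, adjusted p = 0.0947) and -1.29 ± 0.40 (SE, adjusted p = 0.0506). EIN2 (LOC_Os07g06130) and ACS2 (LOC_Os04g48850) had 1.1 ± 0.72 (SE, adjusted p = 0.31) and 0.41 ± 0.32 (SE, adjusted p = 0.392), and IAA31 (LOC_Os12g40900) and IAA13 (LOC_Os03g53150) had -0.5 ± 0.41 (SE, adjusted p = 0.415) and -0.06 ± 0.44 (SE, adjusted p = 0.948).

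In edgeR 0 of 5 PIN auxin transporters, 5 response regulators, 4 ER stress genes, 6 fermentation genes and 4 root development regulators passed, and RBOHB (LOC_Os01g25820), the 1 NADPH oxidase tested, did not either, at -0.3 ± 0.40 (SE, adjusted p = 0.635). At an unadjusted p below 0.05 the counts were 1, 2, 1, 2 and 2 in that order, and 0 for RBOHB. The share of all genes at that threshold is not given here, while 15.4% of all genes passed after adjustment. DESeq2 called 1 response regulator and none of the others. PIN1B (LOC_Os02g50960) and PIN1A (LOC_Os06g12610) had log2 changes of -0.71 ± 0.32 (SE, adjusted p = 0.146) and -0.7 ± 0.35 (SE, adjusted p = 0.194). RefSeq gives the gene matched to LOC_Os02g50960 the symbol PIN1A, so these names differ between sources. RR2 (LOC_Os02g35180) and RR4 (LOC_Os01g72330) had -0.33 ± 0.23 (SE, adjusted p = 0.341) and -0.37 ± 0.13 (SE, adjusted p = 0.0753). BIP1 (LOC_Os02g02410) and PDIL1-1 (LOC_Os11g09280), which fold proteins in the ER, had 0.49 ± 0.26 (SE, adjusted p = 0.206) and 0.09 ± 0.23 (SE, adjusted p = 0.814). ADH2 (LOC_Os11g10510) and PDC2 (LOC_Os03g18220) had 0.41 ± 0.17 (SE, adjusted p = 0.122) and -0.25 ± 0.17 (SE, adjusted p = 0.329), and SHR1 (LOC_Os07g39820) and SCR1 (LOC_Os11g03110), which pattern the root ground tissue, had -0.62 ± 0.24 (SE, adjusted p = 0.103) and -0.38 ± 0.19 (SE, adjusted p = 0.193).

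Over all genes, the 2 largest rises and the 2 largest falls are given by ID, since no table used here names them. They were picked among called genes with a mean of at least 10 CPM in 1 group and no overlap. LOC_Os12g38040 stood at 0, 0.0559 and 0 CPM under ethanol and 13.6, 26.6 and 4.05 CPM under PEP1, and LOC_Os06g10870 at 0, 0.0559 and 0 CPM under ethanol and 15.1, 7.92 and 16.9 CPM under PEP1. Each held 1 count over the ethanol libraries. Their PEP1 to ethanol ratios were 745 (95% counting interval 133 to 29500) and 710 (127 to 28100), with adjusted p of 0.00526 and 0.000164. Novel00992 stood at 35.7, 173 and 96.5 CPM under ethanol and 0.0973, 0.161 and 0.0466 CPM under PEP1 and fell by 9.91 ± 1.01 (SE, adjusted p = 0.00034) on the log2 scale. LOC_Os04g55070 stood at 4.25, 16.6 and 20.02 CPM under ethanol and 0.0973, 0.0535 and 0.0932 CPM under PEP1 and fell by 7.26 ± 1.28 (SE, adjusted p = 0.00597). Without replicate 2 of both groups LOC_Os12g38040 and LOC_Os04g55070 lost their calls (adjusted p = 0.0556 and 0.0547).

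The same treatment of wild type roots, measured in separate libraries, was used to test whether these changes differed between genotypes. The wild type had 1330 called genes (5.19%), with 650 that rose (2.54%) and 680 that fell (2.66%). Among the 232 named genes 17 rose and 30 fell in the wild type. Of the 49 that rose in the RNAi line, 47 had a positive log2 change in the wild type and 14 passed there. Of the 38 that fell, all 38 had a negative one and 26 passed. The median log2 changes of the 49 were 1.6 in the RNAi line and 0.89 in the wild type, and of the 38 -1.86 and -1.67. Genes were picked for passing in the RNAi line, which favours a larger value there.

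Only the test of the difference itself can separate the genotypes, and in edgeR 0 of the 232 named genes passed it. An unadjusted p below 0.05 was reached by 30 of the 232, against 1353 of all 25602 genes, and DESeq2 called 2 of the 232. The lowest adjusted p was that of HKT2;1, with a difference of 4.14 ± 0.78 (SE, adjusted p = 0.25). Its wild type libraries stood at 32.7, 12.8 and 11.98 CPM under ethanol and 457, 196 and 411 CPM under PEP1. The JAZ list had a median log2 change of 1.00 in the RNAi line and 0.06 in the wild type, where edgeR called 0 of the 12, 3 had an unadjusted p below 0.05 and DESeq2 called 0. TIFY11A and TIFY11B were the 2 that rose in the RNAi line with a negative change in the wild type, and the difference was 2.01 ± 0.54 (SE, adjusted p = 0.593) for TIFY11A and 1.4 ± 0.42 (SE, adjusted p = 0.693) for TIFY11B. NIA1 fell by 3.52 in the wild type, with a difference of 2.11 ± 0.58 (SE, adjusted p = 0.607). For the iron synthesis list the medians were -3.68 and -4.24, and for the PIP list 1.00 and 0.87. They lay further apart in other lists, such as nitrogen (0.13 and -1.49), potassium and sodium (2.35 and 0.84) and shoot markers (3.36 and 0.03).

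Over all 25602 genes the difference passed for 1 (0.00391%), LOC_Os12g13340. In the RNAi line it stood at 15.5, 10.8 and 11.03 CPM under ethanol and 10.1, 5.14 and 6.29 CPM under PEP1. In the wild type it stood at 1883, 1726 and 1872 CPM under ethanol and 49.4, 24.1 and 37.05 CPM under PEP1. The RNAi libraries were low under both treatments, and the wild type libraries were high under ethanol alone. The difference of log2 changes was 4.84 ± 0.43 (SE, adjusted p = 0.00684). The call was lost without RNAi ethanol replicate 2, RNAi ethanol replicate 3 or wild type PEP1 replicate 3, and without replicate 2 of both RNAi groups (adjusted p = 0.0624). Over all genes 1353 had an unadjusted p below 0.05, and DESeq2 called 95. The next lowest p belonged to LOC_Os04g58810, with a difference of 3.16 ± 0.42 (SE, adjusted p = 0.153), and among negative differences to LOC_Os12g03822 with -1.03 ± 0.15 (SE, adjusted p = 0.192) and LOC_Os01g61044 with -1.37 ± 0.22 (SE, adjusted p = 0.234).

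**Figure D5:**
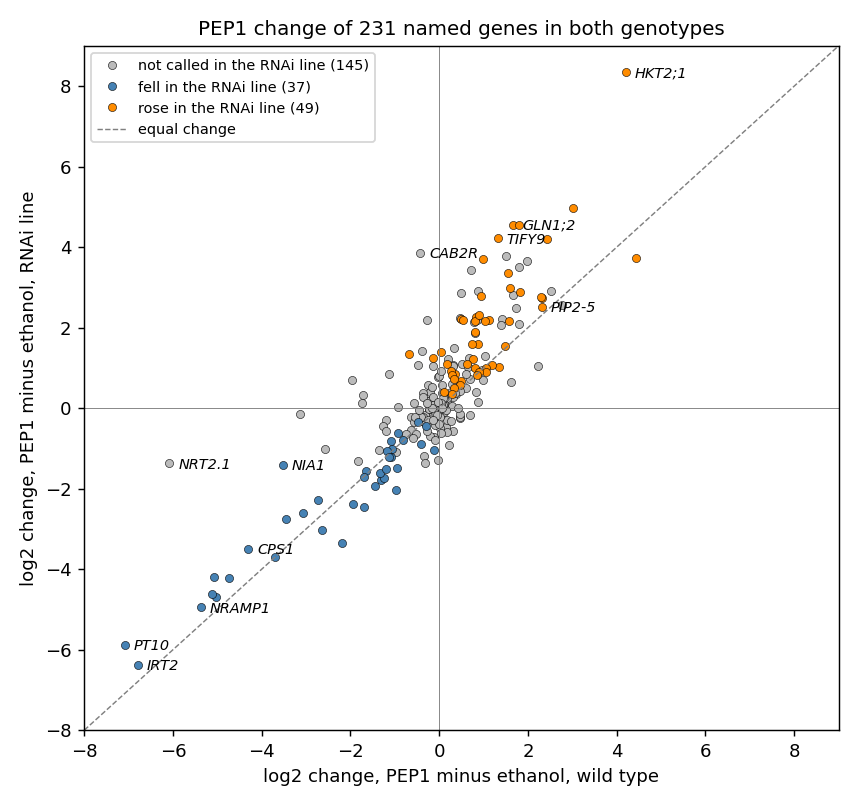
Log2 changes under PEP1 of 231 named genes, in the wild type (horizontal axis) and in the RNAi line (vertical axis), coloured by the call in the RNAi line; KSL5, at 0 counts under PEP1, is left out. The dashed line marks equal change. Iron genes such as IRT2 and NRAMP1 lie near it, and HKT2;1 lies above it at 8.35 against 4.21.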

How the data were processed

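Root RNA from 12 rice libraries was sequenced from TruSeq RNA libraries, per the labels' protocols. The authors deposited raw read counts for 57265 features. The aligner, build, annotation, counting tool and strand setting were not given in the sources used here. The reads of near copies, overlapping genes and antisense partners may therefore have been divided between features. The columns were matched to samples by their labels, and 0 value columns were left unmatched.

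Counts were analysed in R 4.3.3 with edgeR 4.0.16. All 12 libraries in 4 groups entered 1 fit with TMM scaling, after filterByExpr kept 25602 features. Quasi-likelihood tests gave the RNAi contrast, the wild type contrast and their difference, with Benjamini-Hochberg adjustment over all features tested and a threshold of 0.05. A standard error is the absolute log2 change divided by the square root of F. The procedure was tested on simulated data. Library totals were 15368736 to 21317008 counts, and a count of 0 allows 3 counts.

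No table used here names the locus IDs (0 of them matched the 39387 genes of RefSeq assembly ASM3414082v1). Of 356 hand-written pairs of symbol and locus, 246 passed a check of gene order and of position within 1000 kb, and 110 were not used. The members and lists were chosen with earlier results of these data known. Named were, per list, up to 4 called genes with the lowest p and up to 2 others with the highest mean CPM, and every tested iron gene. Also named were the 2 largest rises and falls over all genes, the 2 lowest p in each direction of the difference, and genes of the lists with 1 library at least 5 times the others of its group, in a group with a mean of at least 5 CPM. Called genes beyond this rule were named after their values were seen. Of the alternatives, 15 were set against the RNAi calls and 20 against those of the difference, among them DESeq2 1.42.0 and limma 3.58.1 (voom).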

Additional observations from a re-analysis of the deposited data

Results flagged for a closer look

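LOC_Os12g13340 was the 1 gene whose PEP1 change differed between the RNAi line and the wild type by the test of the difference. The difference of log2 changes, RNAi minus wild type, was 4.84 ± 0.43 (SE; edgeR adjusted p = 0.00684). Its log2 change was -0.79 in the RNAi line (edgeR adjusted p = 0.0919) and -5.63 in the wild type (edgeR adjusted p = 1.93e-05). All 3 wild type PEP1 libraries lay below all 3 wild type ethanol libraries, and the RNAi groups did not overlap either.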

How the results depend on the processing

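The count of 3934 genes called in the RNAi line was 6291 with DESeq2, 1089 without replicate 2 of both RNAi groups, and 1293 to 4064 with 1 RNAi library left out. It was 3367 to 4881 with RLE scaling, limma-voom, no filter, a strict filter or the 6 RNAi libraries alone, 2744 to 5604 with 1 wild type library left out, and 2339 without wild type ethanol replicate 1 and replicate 2 of both RNAi groups. The deviations of same-numbered RNAi libraries from their group means had r of -0.058, 0.547 and 0.14 for replicates 1, 2 and 3. For RNAi libraries of different numbers r ran from -0.574 to 0.498. Whether the replicate numbers pair the samples was not tested. With the replicate block the count was 3965 (3202 of them among the 3934), and it was 5200 in the RNAi libraries alone with the block. In both block fits 5 instead of 1 chromosome 2 diterpenoid genes rose, 5 instead of 3 of the 5 on chromosome 4, and 2 instead of 0 shoot markers. Without the block the 6 RNAi libraries alone gave 0, 1 and 0. The difference between genotypes was called for 1 gene, for 1 with the replicate block, 95 with DESeq2, 0 without replicate 2 of both RNAi groups, 4 without wild type ethanol replicate 1 and those 2 libraries, and 0 to 6 with 1 library left out. The cause of these shifts was not tested. Of the 87 called named genes, 42 kept their calls in all 15 alternatives and 0 reversed. With 3 libraries a group, genes near the floor of 3 counts allow only bounds or wide intervals.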
